A study of Mus musculus with 5 samples.

Results

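Aldose reductase (Akr1b3), 3 related aldo-keto reductases (Akr1b8, Akr1b10 and Akr1a1), sorbitol dehydrogenase (Sord) and ketohexokinase (Khk) were examined in the injured mouse retina. They were taken by gene symbol, 6 of the 25655 symbols in the count table. All 6 were among the 14992 genes that passed the filter on low counts. RNA sequencing counts were compared between whole retinas of C57BL/6 wildtype mice given the aldose reductase inhibitor Sorbinil or its vehicle DMSO, to ask which transcripts differ when aldose reductase is inhibited after optic nerve crush (ONC), an acute injury of the axons of retinal ganglion cells. Every retina was on the crushed side and was taken on day 7, from mice of both sexes aged 8 to 10 weeks. Sorbinil at 10 mg/kg or DMSO was injected intraperitoneally from the day before ONC and then daily. DMSO replicates 1 to 3 and Sorbinil replicates 1 and 3 made up groups of 3 and 2 retinas. All were injured, and the effect of injury itself was not analysed here. The sample labels do not name the animals, but the study's figure legend for these data gives 3 DMSO mice and 2 Sorbinil mice. The p-values measure only the spread between these 5 samples.

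The polyol pathway turns glucose into fructose. Aldose reductase reduces glucose to sorbitol with NADPH, Sord oxidizes sorbitol to fructose with NAD+, and Khk then phosphorylates fructose. In the eye the pathway is best known from diabetes, in which sorbitol builds up in the lens and aldose reductase has been studied in Müller glia and vessels. Sorbinil acts on the aldose reductase enzyme, so the Akr1b3 transcript is neither a measure of inhibition nor a check of the labels.

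Counts on genes totalled 56096541 to 90288552 per retina. Values per gene are CPM, that is counts relative to the depth of the library after TMM scaling, and fold changes are those of Sorbinil against DMSO in edgeR's quasi-likelihood test. In whole retina, fewer cells of a type and less RNA per cell cannot be told apart. Sorbinil replicate 1 stood apart from the other 4 retinas in its cell type markers. All 12 Müller glia markers were below every DMSO retina there, and their summed level was 2383 CPM against 6179 to 7216 CPM in DMSO and 6651 CPM in Sorbinil replicate 3. All 15 rod markers were above every DMSO retina in Sorbinil replicate 1, at 157547 CPM against 95030 to 113662 CPM, and the rod sum of Sorbinil replicate 3 was 81077 CPM. The part of these marker differences in the values below was not tested, and each enzyme is therefore given for each Sorbinil retina on its own.

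Akr1b3, Akr1b8 and Akr1b10 lie next to each other on chromosome 6 and have coding sequences of equal length, 948 bases. Short reads can be assigned between them only where these sequences differ, and for this reason a stretch of high and a stretch of low similarity is shown. Akr1b8 and Akr1b10 were identical at 84.7% of coding bases, compared to 70.9% for Akr1b3 and Akr1b8 and 71.6% for Akr1b3 and Akr1b10. Stretches of 60 bases that start at a codon and lie within 1 exon were ranked by the bases identical in 4 genes, these 3 and Akr1b7. The most alike and least alike had 48 and 21 such bases. The most alike stretch, from coding base 478 to 537 in exon 5, had the same letters in Akr1b8 and Akr1b10 and differed from Akr1b3 at 12 bases. Letters are those of GRCm39 on the coding strand, and capitals mark bases that differ from Akr1b3.
Akr1b3, chr6:34287463-34287522, minus strand: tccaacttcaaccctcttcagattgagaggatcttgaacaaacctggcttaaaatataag
Akr1b8, chr6:34340315-34340374, plus strand: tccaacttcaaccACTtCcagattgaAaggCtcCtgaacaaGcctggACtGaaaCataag
Akr1b10, chr6:34369000-34369059, plus strand: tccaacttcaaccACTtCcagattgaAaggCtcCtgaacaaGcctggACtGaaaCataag
In the least alike stretch, from coding base 352 to 411 in exon 4, Akr1b8 differed from Akr1b3 at 30 of the 60 bases, Akr1b10 differed from Akr1b3 at 34, and Akr1b8 and Akr1b10 differed from each other at 18.
Akr1b3, chr6:34287878-34287937, minus strand: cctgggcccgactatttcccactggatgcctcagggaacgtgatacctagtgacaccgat
Akr1b8, chr6:34335066-34335125, plus strand: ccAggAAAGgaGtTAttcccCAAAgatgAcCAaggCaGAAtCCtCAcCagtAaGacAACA
Akr1b10, chr6:34366990-34367049, plus strand: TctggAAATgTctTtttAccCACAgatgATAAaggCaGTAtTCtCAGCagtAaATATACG

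Few reads could be shared within the family, but copies of Akr1b3 lie elsewhere in the genome. Of all 75-base windows of the canonical transcript (the one the annotation takes as representative), 1.5% in Akr1b8 and 0.5% in Akr1b10 occurred unchanged in another gene. In Akr1b3, 1112 of 1337 windows (83.2%) also occurred in at least 1 other gene. These were the processed pseudogenes Gm6644, Gm6736 and Gm12138, the unclassified locus Gm38056, which covers Gm6644, and Gm14546, an antisense transcript at the Akr1b3 locus. Gm38056 had 0 counts in every retina, and the others were not found in the table under these names. For Sord the share was 26.1%, all with the pseudogene Gm6652, and for Akr1a1 it was 0.0%. The opposite-strand gene Cgref1, with a mean of 302 counts, overlapped 27.1% of the Khk exon bases. How reads with more than 1 match were counted, and whether strand was used, is not given in the sources used here, so the Akr1b3, Sord and Khk counts may include or lack reads of these loci. The limit on strand also holds for some genes named further below. Opposite-strand genes overlapped 53.3% of the exon bases of Glyctk (D030055H07Rik), 35.0% of Me1 (Rwdd2a) and 34.1% of Slc2a12 (Tbpl1, with a mean of 3625 counts).

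Akr1b3, which encodes aldose reductase, was below the whole DMSO range in each of the Sorbinil retinas. The gene (ENSMUSG00000001642, named Akr1b1 in GENCODE vM39) is at positions 34279369 to 34294434 of chromosome 6, minus strand. It measured 27.5, 25.3 and 23.9 CPM in DMSO replicates 1, 2 and 3, from 2655, 2023 and 1330 counts. In Sorbinil replicates 1 and 3 it measured 17.6 and 20.5 CPM, from 925 and 1393 counts. The 5 values fell into separate ranges, with the lowest DMSO retina above the higher Sorbinil retina. The means were 25.6 ± 1.78 CPM (SD, n = 3) in DMSO and 19.1 ± 2.07 CPM (SD, n = 2) in Sorbinil. Fitted on the log2 scale, the change was -0.42 (SE 0.14, 95% interval -0.77 to -0.08), which is 0.746 times the DMSO level (interval 0.586 to 0.949). Its unadjusted p was 0.0250 and its adjusted p was 0.758 in edgeR's quasi-likelihood test over all genes. An exact two-sided permutation test gave p = 0.1, the smallest value that 3 against 2 retinas allow. Akr1b3 was 1 of 1569 genes, 10.5% of those tested, in which both Sorbinil retinas were below every DMSO retina.

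Akr1b10, a neighbour of Akr1b3 on chromosome 6, was also below every DMSO retina in both Sorbinil retinas, but most of its difference came from 1 of them. Its position is chromosome 6, 34361153 to 34374663, plus strand (ENSMUSG00000061758). The DMSO retinas measured 2.64, 2.43 and 2.56 CPM, from 255, 194 and 142 counts. Sorbinil replicate 1 measured 1.05 CPM, from 55 counts, and Sorbinil replicate 3 measured 2.27 CPM, from 154 counts. Replicate 3 was thus close under the DMSO range, and replicate 1 was far below it. DMSO retinas averaged 2.54 ± 0.106 CPM (SD, n = 3), compared to 1.66 ± 0.864 CPM (SD, n = 2) in Sorbinil. This gave a log2 fold change of -0.61 (SE 0.37, 95% interval -1.53 to 0.32), with an unadjusted p of 0.157 and an adjusted p of 0.758 in edgeR's test, and the exact permutation p was 0.1. Against the DMSO mean, Sorbinil replicate 1 was at -1.27 and Sorbinil replicate 3 at -0.16 on the log2 scale. In Sorbinil replicate 1 the median Müller glia marker was at -1.44 and the median microglia and macrophage marker at -0.97 on the same scale, against 0.02 and -0.12 in Sorbinil replicate 3. The medians of endothelium (-2.02 and -0.72), pericytes (-1.46 and -0.07) and retinal ganglion cells (-1.35 and -0.22) were also lower in replicate 1 than in replicate 3. So were those of pigment epithelium (-0.82 and 0.21) and lens (-0.12 and 3.25), and that of rods was higher (0.56 and -0.32). The part of any cell type in the Akr1b10 values was not tested.

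Akr1b8, the third gene of this cluster and a close relative of Akr1b10, had the lowest counts of the 6 genes. It spans 34331054 to 34345409 of chromosome 6, plus strand (ENSMUSG00000029762). It measured 1.16, 0.963 and 1.24 CPM in the DMSO retinas and 0.875 and 1.02 CPM in the Sorbinil retinas, from between 46 and 112 counts. The groups overlapped, with DMSO replicate 2 below Sorbinil replicate 3. Between groups the log2 fold change was -0.24 (SE 0.29, 95% interval -0.96 to 0.48), with an unadjusted p of 0.439 and an adjusted p of 0.790. At this depth a 1.39-fold higher level and a level 0.514 times that of DMSO both lay within the interval.

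Akr1a1, the aldehyde reductase that in mice also serves the synthesis of vitamin C, had the highest counts of the 6 genes. It spans 116493703 to 116516804 of chromosome 4, minus strand (ENSMUSG00000028692). The DMSO retinas measured 190.4, 191.6 and 217.5 CPM, and Sorbinil replicates 1 and 3 measured 207.9 and 173.1 CPM, from between 10929 and 18411 counts. The Sorbinil retinas lay on either side of the DMSO mean, and the groups overlapped. DMSO retinas averaged 199.8 ± 15.3 CPM (SD, n = 3) and Sorbinil retinas 190.5 ± 24.6 CPM (SD, n = 2). The fitted log2 fold change was -0.07 (SE 0.14, 95% interval -0.43 to 0.29), with an unadjusted p of 0.652 and an adjusted p of 0.872. The order of the retinas depended on the scaling. As CPM of all counts, without TMM, Akr1a1 was at 203.9, 197.8 and 215.4 in DMSO and at 177.5 and 185.1 in Sorbinil, which did not overlap.

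Sord, the second enzyme of the polyol pathway, differed between the Sorbinil retinas more than between the groups. Its position is chromosome 2, 122065230 to 122095821, plus strand (ENSMUSG00000027227). The DMSO retinas measured 16.3, 14.8 and 14.7 CPM, from 1580, 1183 and 816 counts. Sorbinil replicate 1 measured 11.5 CPM from 602 counts, below every DMSO retina, and Sorbinil replicate 3 measured 16.5 CPM from 1118 counts, above every DMSO retina. DMSO retinas averaged 15.3 ± 0.924 CPM (SD, n = 3), compared to 13.96 ± 3.55 CPM (SD, n = 2) in Sorbinil, and the log2 fold change was -0.13 (SE 0.19, 95% interval -0.61 to 0.35), with an unadjusted p of 0.533 and an adjusted p of 0.823 in edgeR's test.

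Khk, which commits fructose to breakdown, was the only one of the 6 with a positive fold change after TMM scaling, and it was close to 0. The gene occupies 31078775 to 31101479 of chromosome 5, plus strand (ENSMUSG00000029162). It measured 9.49, 9.17 and 9.56 CPM in DMSO and 10.3 and 9.08 CPM in Sorbinil, from between 531 and 918 counts. The narrow DMSO range lay between the Sorbinil values. Its log2 fold change was 0.05 (SE 0.15, 95% interval -0.33 to 0.42), with an unadjusted p of 0.774 and an adjusted p of 0.922. With scaling by library size alone it was -0.07.

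**Figure D1:**
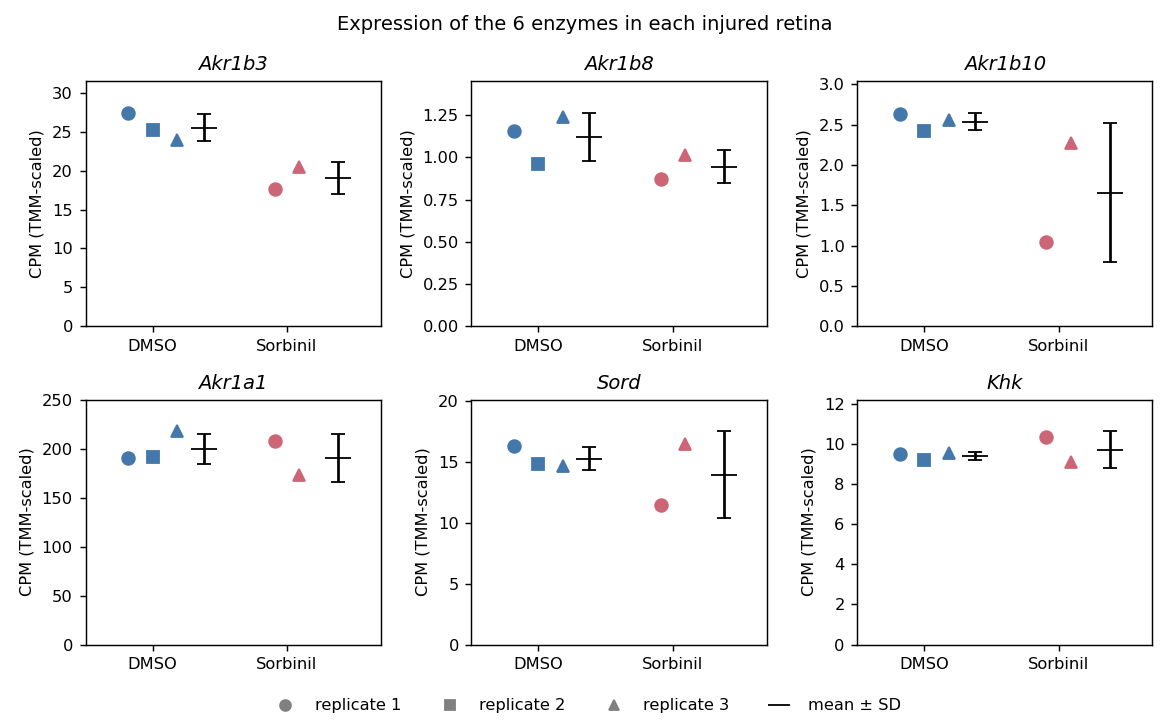
Level of each of the 6 enzymes (TMM-scaled CPM, each axis from 0) in the 3 DMSO and 2 Sorbinil retinas. Points are single retinas, with a shape for each replicate number, and bars are the mean ± SD. For Akr1b3 the Sorbinil retinas (17.6 and 20.5 CPM) sit below the DMSO retinas (23.9 to 27.5 CPM), while for Sord they sit on either side of them.

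The study's methods called genes by an unadjusted p of up to 0.1 together with a 2-fold difference. By this threshold 0 of the 6 enzymes and 257 of the 14992 genes tested (1.71%) were called. Without the fold limit, Akr1b3 was the 1 enzyme of 6 with an unadjusted p of at most 0.1, against 1696 of all genes (11.3%). By edgeR's quasi-likelihood test 0 of all genes had an adjusted p under 0.05, with 751 at an unadjusted p under 0.05, and the DESeq2 Wald test gave 21 at its adjusted p. Akr1b3 and Akr1b10, 2 of the 6, had both Sorbinil retinas below every DMSO retina, beside 10.5% of all genes. The fitted level was lower in Sorbinil for 5 of the 6 enzymes, or 6 of 6 with scaling by library size alone, and for 51.0% of all genes tested. The median log2 fold change was -0.19 over the enzymes and -0.01 over all genes. A 2-fold lower level lay outside the 95% interval of every enzyme except Akr1b10.

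**Figure D2:**
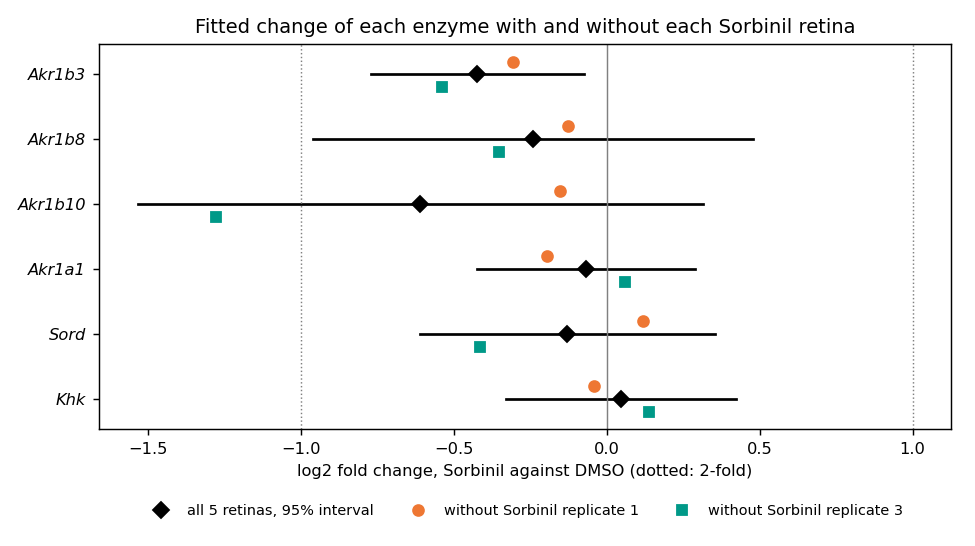
Log2 fold change of each enzyme, Sorbinil against DMSO, from edgeR's quasi-likelihood test. Diamonds with lines are all 5 retinas with the 95% interval, circles leave out Sorbinil replicate 1, squares leave out Sorbinil replicate 3, and dotted lines mark 2-fold. The Akr1b3 estimates stay between -0.54 and -0.31, while those of Sord, Akr1a1 and Khk lie on either side of 0.

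Taken retina by retina, 3 of the 6 enzymes were on the same side of the DMSO mean in both Sorbinil retinas, namely Akr1b3, Akr1b8 and Akr1b10. On the log2 scale Akr1b3 was at -0.54 in the first and -0.31 in the other (replicates 1 and 3), and Akr1b8 was at -0.35 and -0.13. Sord was at -0.41 and 0.11, Akr1a1 at 0.06 and -0.20, and Khk at 0.14 and -0.05, each with opposite signs in the 2 retinas. Over the 6 enzymes the median was -0.38 in replicate 1 and -0.15 in replicate 3 of Sorbinil, beside 0.02 and -0.01 over all genes tested. The summed markers of microglia and macrophages, the cells named in the study's title, were 0.523 and 0.872 times the DMSO mean in these retinas. Those of the endothelium were 0.400 and 1.00 times the DMSO mean. In Sorbinil replicate 3, however, 10 of the 12 endothelium markers were below every DMSO retina, with a median of -0.72 on the log2 scale. Sums for pericytes were 0.302 and 0.848 times, and for retinal ganglion cells 0.359 and 0.912 times, the DMSO mean. Lens markers, which ran from 2.35 to 70.9 CPM in DMSO, were at 4.43 and 46.5 CPM, and those of the pigment epithelium, at 113 to 287 CPM in DMSO, were at 96.6 and 169 CPM. Lens and pigment epithelium markers were highest in DMSO replicate 3, the DMSO retina with the least Akr1b3. Sorbinil replicate 1, with the least Akr1b3 of all retinas, had the lowest pigment epithelium sum. Its lens sum was above those of DMSO replicates 1 and 2 (2.35 and 2.65 CPM). A relation between these markers and Akr1b3 was not tested.

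**Figure D3:**
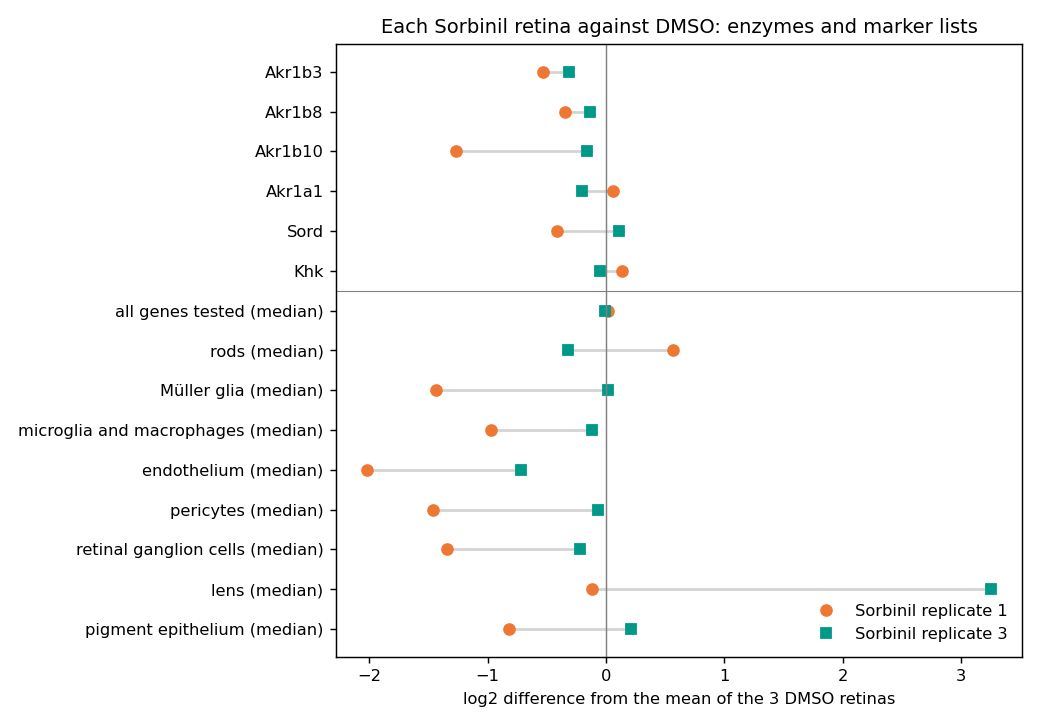
Log2 difference of each Sorbinil retina from the mean of the 3 DMSO retinas, for the 6 enzymes (above the line) and as the median over all genes tested and over each cell type marker list (below it). Circles are Sorbinil replicate 1 and squares Sorbinil replicate 3. Akr1b10 is at -1.27 and -0.16. The medians of endothelium (-2.02 and -0.72), Müller glia (-1.44 and 0.02), pericytes (-1.46 and -0.07) and retinal ganglion cells (-1.35 and -0.22) are also lower in replicate 1. Those of microglia and macrophages, pigment epithelium and lens are lower there too, and that of rods (0.56 and -0.32) is higher. Akr1b3 (-0.54 and -0.31) differs less between the retinas than Akr1b10.

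The mice were of both sexes, and 4 Y-linked genes marked DMSO replicates 1 and 2 and Sorbinil replicate 1 as male and DMSO replicate 3 and Sorbinil replicate 3 as female. With 1 Sorbinil retina of each sex, sex and retina cannot be told apart. Akr1b3 was at -0.58 between the male retinas and at -0.22 between the female retinas on the log2 scale. Akr1b8 was at -0.27 and -0.29, and Akr1b10 at -1.27 and -0.17. Akr1a1 was at 0.12 in males and -0.33 in females, Sord at -0.44 and 0.17, and Khk at 0.15 and -0.07. Akr1b3, Akr1b8 and Akr1b10 were thus lower in Sorbinil in both sexes, and the other 3 enzymes had opposite signs. With sex as a term in edgeR's test, Akr1b3 was at -0.43 with an unadjusted p of 0.0556.

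Levels were compared between the genes per kilobase of the union of their exons. In the DMSO retinas Akr1a1 led with 51.2 ± 3.92 CPM per kilobase (SD, n = 3), followed by Sord with 5.15 ± 0.312. Akr1b3 came next with 3.04 ± 0.211 CPM per kilobase, then Khk with 1.27 ± 0.0281, Akr1b8 with 0.577 ± 0.0735 and Akr1b10 with 0.455 ± 0.0190. No neighbours in this order overlapped between retinas, in DMSO or in Sorbinil. The order of Akr1b3 and Sord depended on the length, because the exons annotated for Akr1b3 add up to 8405 bases and its canonical transcript to 1411 bases. Per kilobase of the canonical transcript, Akr1b3 was at 18.1 ± 1.26 CPM, above Sord at 6.49 ± 0.393 and Khk at 5.67 ± 0.125. On this scale Akr1b10, at 1.85 ± 0.0773 CPM per kilobase, was above Akr1b8, and Sord and Khk overlapped in Sorbinil. Akr1a1 had the highest level per kilobase with every length used.

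**Figure D4:**
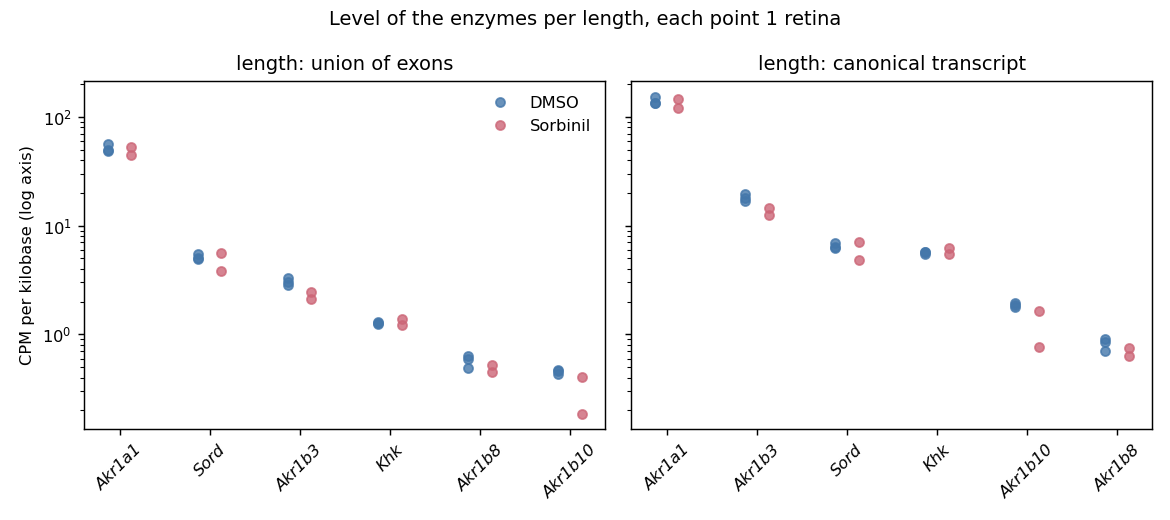
Level of the 6 enzymes in CPM per kilobase on a log axis, per length of the union of exons (left) and of the canonical transcript (right). Each point is 1 of the 3 DMSO or 2 Sorbinil retinas. Akr1a1 is highest on both sides, at 51.2 and 140 CPM per kilobase on average in DMSO, and Akr1b3 changes places with Sord.

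Ratios of pairs of enzymes within a retina do not depend on the scaling between libraries. The ratio of Akr1b3 to Sord, the first enzyme of the pathway to the second, was 0.593, 0.604 and 0.575 in the DMSO retinas and 0.542 and 0.440 in the Sorbinil retinas, per kilobase of exon. It was lower in both Sorbinil retinas, with a log2 difference of -0.27 and an exact two-sided permutation p of 0.1, which was 0.4 after Benjamini-Hochberg adjustment over the 4 ratios tested. With Sorbinil replicate 1 as the lone Sorbinil retina the log2 difference was -0.12, and with replicate 3 alone it was -0.43. Akr1b3 to Akr1a1 was 0.0670, 0.0614 and 0.0511 in DMSO and 0.0393 and 0.0551 in Sorbinil, with overlap (log2 difference -0.35, exact permutation p = 0.3, adjusted 0.6). It was -0.60 with Sorbinil replicate 1 alone and -0.11 with replicate 3 alone. Akr1b3 to Akr1b10 was 6.92, 6.93 and 6.22 in DMSO, and 11.2 and 6.01 in Sorbinil (exact permutation p = 0.5, adjusted 0.667). Sord to Khk, the next step of the pathway, was 4.29, 4.02 and 3.83 in DMSO and 2.76 and 4.52 in Sorbinil (exact permutation p = 0.8, adjusted 0.8). The last 2 ratios had opposite directions in the Sorbinil retinas.

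Of 57 further genes around the pathway, in 5 lists, 56 were in the table, 41 were tested and 0 were called, beside 1.71% of all genes tested. For the counts per list below, 11.3% of all genes tested had an unadjusted p of at most 0.1 in edgeR's test. The list of other aldo-keto reductases had 3 genes tested of 13, of which 0 had an unadjusted p of at most 0.1, with a median log2 fold change of -0.05. Akr1e1, a reductase of 1,5-anhydrofructose, was at 0.16 (SE 0.15) and Akr7a5, which reduces aldehydes including succinic semialdehyde, was at -0.05 (SE 0.14), and both groups overlapped. Akr1b7, the fourth gene of the cluster on chromosome 6, had between 1 and 6 counts per retina and was not tested.

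Among genes of fructose handling, 8 of 11 were tested and 1 had an unadjusted p of at most 0.1, with a median log2 fold change of -0.05. Aldoc, the aldolase that splits fructose 1-phosphate in neural tissue, was at 526, 454 and 498 CPM in DMSO and at 397 and 447 CPM in Sorbinil. It was below every DMSO retina in both, with a log2 fold change of -0.22 (SE 0.15) and an unadjusted p of 0.183. Hexokinase Hk2, at 0.26 (SE 0.28), and the glycerate kinase Glyctk, at 0.23 (SE 0.20), had the most positive fold changes.

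Among genes of glucose uptake and NADPH supply, 10 of 11 were tested and 1 had an unadjusted p of at most 0.1, and the median was -0.10. Slc2a4, the insulin-responsive glucose transporter, was at 1.16, 1.41 and 1.26 CPM in DMSO and 2.51 and 2.05 CPM in Sorbinil. It was 1 of 1913 genes, of the 14992 tested, in which both Sorbinil retinas were above every DMSO retina. Its log2 fold change was 0.83 (SE 0.26), with an unadjusted p of 0.0187 and an adjusted p of 0.758 in edgeR's test. The neuronal glucose transporter Slc2a3 was at 92.3, 80.2 and 69.0 CPM in DMSO, and at 30.9 CPM in Sorbinil replicate 1 and 76.6 CPM in Sorbinil replicate 3. The glucose transporter Slc2a12 had a similar pattern, with 1.27 CPM in Sorbinil replicate 1 and 2.48 to 2.84 CPM in the other 4 retinas. Me1, malic enzyme, which makes NADPH, was at 0.16 (SE 0.20). Nnt was not analysed here.

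In the glucuronate and xylulose pathway, which uses the product of Akr1a1, 6 of 8 genes were tested and 0 had an unadjusted p of at most 0.1, with a median of -0.03. The xylulose reductase Dcxr was at 3.71, 3.17 and 3.33 CPM in DMSO and 1.35 and 2.96 CPM in Sorbinil (log2 fold change -0.65, SE 0.37, unadjusted p = 0.133 in edgeR's test). Xylulokinase Xylb, which phosphorylates D-xylulose, lay above every DMSO retina in both, as did 1913 of the 14992 genes tested. It was at 6.75 and 6.34 CPM against 4.94 to 5.78 CPM (0.30, SE 0.18, unadjusted p = 0.138 in edgeR's test). Cryl1, the dehydrogenase of gulonate, was at -0.25 (SE 0.25), and Gulo, the last enzyme of vitamin C synthesis, at 0.16 (SE 0.17).

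All 14 genes of aldehyde and glycation detoxification were tested and 1 had an unadjusted p of at most 0.1, with a median of -0.12. This was the carbonyl reductase Cbr1, named after its values were seen, at -0.32 (SE 0.12, unadjusted p = 0.0382 and adjusted p = 0.758 in edgeR's test). Aldh1a1, which oxidizes retinaldehyde to retinoic acid, was at 79.8, 67.4 and 71.2 CPM in DMSO and 26.5 and 66.5 CPM in Sorbinil. The mitochondrial aldehyde dehydrogenase Aldh2 was at 40.5, 37.4 and 34.8 CPM in DMSO and 15.3 and 39.5 CPM in Sorbinil. Both were thus far lower in Sorbinil replicate 1 alone, at -1.46 and -1.29 on the log2 scale. In that retina the marker medians were -2.02 for endothelium, -1.46 for pericytes, -1.44 for Müller glia and -1.35 for retinal ganglion cells. They were -0.97 for microglia and macrophages, -0.82 for pigment epithelium, -0.12 for lens and 0.56 for rods. A link to any cell type was not tested. Glo1, the glyoxalase that removes methylglyoxal, was at 0.15 (SE 0.16), and Aldh7a1 at 0.17 (SE 0.11).

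**Figure D5:**
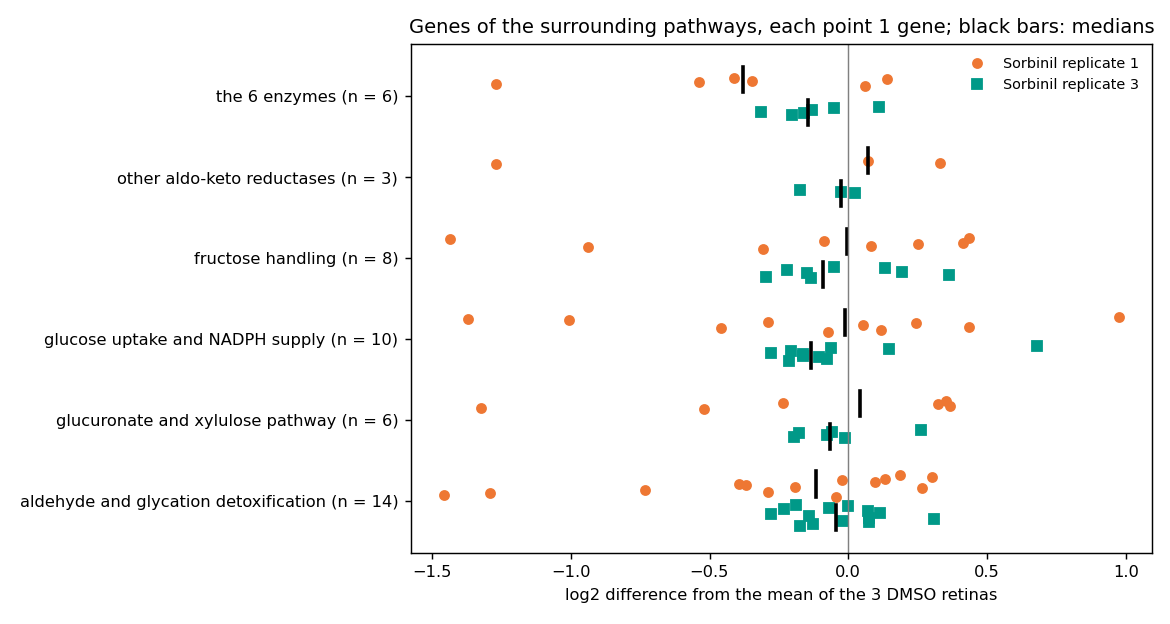
Log2 difference from the mean of the 3 DMSO retinas for the tested genes of the 6 enzymes and of the 5 surrounding lists. Each point is 1 gene in Sorbinil replicate 1 (circle) or Sorbinil replicate 3 (square), and black bars are medians. Points of Sorbinil replicate 1 spread from -1.46 (Aldh1a1) to 0.97 (Slc2a4), and the medians of the 6 enzymes are -0.38 and -0.15.

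The genes whose pattern over the 5 retinas was most like that of Akr1b3 were sought among the 13053 genes with a mean of at least 1 CPM. Likeness was the root mean square difference of log2 CPM after each gene was centred on its own mean. Smyd5, at 16.8, 15.9 and 15.0 CPM in DMSO and 11.4 and 12.9 CPM in Sorbinil, was nearest with 0.0246 log2 units. It was followed by Pnpla2 with 0.0258 and Dtd1 with 0.0278. Over 5 retinas a close likeness of some of 13053 genes is of little weight. Of the other enzymes, Sord was at place 1022, Akr1b8 at 1087, Akr1a1 at 3866, Khk at 4237 and Akr1b10 at 6253 in this order of 13053 genes.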

How the data were processed

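Per the labels and the study's methods, total RNA of the injured retina was made into stranded libraries. The labels and the methods name different total RNA kits and input amounts. The authors trimmed adaptors off the reads, used CLC Genomics Workbench with its defaults to align them to GRCm39, and the deposited values are raw counts per gene in whole numbers. The annotation release and the treatment of strand are not given in the sources used here. A further Sorbinil replicate, excluded by the authors after PCA, was not analysed here. Each of the 5 columns was matched to a sample by name, and 0 were left out. No retina was a copy of another, with a chi-square of at least 25.5 per degree of freedom in each pair.

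Genes with low counts were removed with filterByExpr (minimum count 10). After TMM scaling, glmQLFit and glmQLFTest were run in edgeR 4.0.16 (R 4.3.3, limma 3.58.1), with Benjamini-Hochberg adjustment over all genes tested. Permutation tests used log2(CPM + 0.01) over all 10 groupings, two-sided. Totals of 56096541 to 90288552 counts give a gene of 46 counts, the lowest among the 6 enzymes, an exact 95% Poisson interval of 33.7 to 61.4 counts, for counting error only. Gene models were those of GENCODE vM39 on GRCm39, in which 23602 symbols were found. Of the surrounding lists, genes with an unadjusted p of at most 0.1 and at least 2-fold were named, with the 2 highest and 2 lowest fold changes per list at a mean of at least 1 CPM. Some genes of these lists are not reported here by name. The enzymes and lists were chosen with earlier results of these data known. The steps were tested on simulated data. Alternatives were other filters, scalings, tests (with DESeq2 1.42.0), thresholds, gene lengths, a replicate block and the omission of each retina. A sex term and the canonical length were chosen after seeing the data.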

Additional observations from a re-analysis of the deposited data

Results flagged for a closer look

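One result met a rule for a difference between groups of retinas. The log2 fold change of Sord was lower by 0.61 in male than in female retinas (male minus female -0.61), with an unadjusted p of 0.0192 and an adjusted p of 0.0489 for the interaction of sex and treatment in edgeR's quasi-likelihood test. Sord was lower in the 1 male Sorbinil retina than in both male DMSO retinas and higher in the 1 female Sorbinil retina than in the 1 female DMSO retina. The same test gave an adjusted p under 0.05 for 5934 genes, 39.6% of those tested. Its spread rests on DMSO replicates 1 and 2 alone, the only retinas that share a sex and a treatment, and sex cannot be told apart from the retina. Groups of 2 or 3 retinas are too small for a test of single outlying values.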

How the results depend on the processing

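Of 207 values computed under alternatives, 168 were marked as the same, 6 as reversed and 33 as moved or on the other side of the threshold. A fold change was the same if it kept its direction and its side of the threshold. Numbers of genes called were the same if close to the main number, level orders if the place was equal, and ratios by direction alone. Leaving out each retina in turn, the log2 fold change ran from -0.54 to -0.31 for Akr1b3, -0.35 to -0.13 for Akr1b8, -1.28 to -0.15 for Akr1b10, -0.20 to 0.06 for Akr1a1, -0.41 to 0.12 for Sord and -0.04 to 0.14 for Khk. Akr1a1 was at 0.059 without Sorbinil replicate 3, and Sord at 0.12 and Khk at -0.041 without Sorbinil replicate 1. The log2 difference of the ratio of Sord to Khk ran from -0.55 to 0.16 and that of Akr1b3 to Akr1b10 from -0.15 to 0.74, both reversed without Sorbinil replicate 1. Those of Akr1b3 to Sord ran from -0.43 to -0.12 and of Akr1b3 to Akr1a1 from -0.60 to -0.11. Scaling by library size alone moved the median of all genes from -0.01 to -0.11 and Khk to -0.066. The cause of these changes was not tested.

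Akr1b10, 1 of the 6 enzymes, was called without Sorbinil replicate 3, at a log2 fold change of -1.28. Of all omissions of a retina given below, this one had the most genes called, with 15266 tested. The call therefore does not set Akr1b10 apart from other genes. There the lone Sorbinil retina is assumed to vary like the others, and 8 of the surrounding genes were called. Leaving out each retina, the number of genes called ran from 164 to 2903, of lower genes from 129 to 2656 and of higher genes from 35 to 247. The lowest were without DMSO replicate 1 and the highest without Sorbinil replicate 3, and without DMSO replicate 2 there were 133 lower genes. With no filter 408 genes were called, 115 of them higher, and 1 of the surrounding genes, Akr1c20, with 2 to 15 counts per retina. With at least 10 counts in every retina there were 148 (119 lower and 29 higher), and with scaling by library size 33 higher. A limit of 0.05 on the unadjusted p gave 168 (129 lower). An adjusted p of at most 0.05 gave 0 genes, 0 lower and 0 higher, with 751 at an unadjusted p under 0.05. Without the fold limit there were 1696 (649 lower and 1047 higher), with 1 enzyme and 3 surrounding genes. Per kilobase of the longest or the canonical transcript, Akr1b8 moved to place 6 and Akr1b10 to place 5 in DMSO, and with the canonical transcript Akr1b3 moved to place 2 and Sord to place 3.

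Replicates 1 and 3 occur in both groups, and retinas of the same number also had the same sex. Deviations of same-numbered retinas from their group mean correlated at -0.20 and -0.09 across genes. With 2 Sorbinil retinas, their deviations mirror each other, so these correlations cannot tell whether same-numbered retinas were paired. With a replicate block the p of Akr1b3 in edgeR's quasi-likelihood test was 0.275. The log2 fold changes were then -0.43 for Akr1b3, -0.35 for Akr1b8, -0.74 for Akr1b10, -0.10 for Akr1a1, -0.17 for Sord and 0.03 for Khk, and 203 genes were called, 153 lower and 50 higher. Without DMSO replicate 1, the unadjusted p of Akr1b3 was 0.101. Akr1b8 and Akr1b10 had the fewest counts, 46 to 255 per retina. Their SEs were 0.29 and 0.37 on the log2 scale, and the parts of depth and of the spread between retinas in them were not tested.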
